A study of Mus musculus with 10 samples.

Results

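The genes of 5 NF-κB subunits (Nfkb1, Nfkb2, Rel, Rela, and Relb) and of 5 feedback inhibitors (Nfkbia, Nfkbiz, Nfkbid, Nfkbie, and Tnfaip3) were followed through chromatin accessibility of group 2 innate lymphoid cells (ILC2s). A region of the count table was taken when its centre lay inside 1 of these genes, or when the transcription start site (TSS) nearest to it belonged to 1 of them. This gave 90 regions of 50039, of which Nfkb1 held 29, Nfkbiz 22, Tnfaip3 13, Nfkbia 10, Rel 4, Relb 3, Nfkbid 3, and Nfkb2, Rela, and Nfkbie 2 each. Of the 90 regions, 10 lay in a promoter (up to 1000 bp before or 100 bp after a TSS), 37 inside a gene, and 43 between genes. Assigning a region to the nearest gene is a convention, and the gene that it regulates is not known from these data.

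NF-κB is a family of dimeric transcription factors that inhibitory IκB proteins hold in the cytoplasm. Signals such as IL-33 through its receptor ST2 activate the IκB kinase, the inhibitors are degraded, and the released dimers enter the nucleus and bind κB sites. Several subunits and inhibitors are themselves NF-κB targets, so the pathway limits its own activity, and in ILC2s it lies downstream of the alarmins that induce type 2 cytokines.

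ATAC-seq, in which the Tn5 transposase cuts open chromatin, was performed on ILC2s from lung, pancreas, bone marrow (BM), and the large (LI) and small intestine (SI), each tissue with 2 libraries. All animals were male C57BL/6 mice of 6 weeks, and the labels give no other allele and no agent for any group. Every library held 50000 sorted cells, from pools of 10 mice for the intestines and 16 mice for the other tissues. BM cells were sorted as lineage-negative ST2+CD25+ cells on 1 sorter, LI, lung, and pancreas cells through CD45, CD127, ST2, and CD25, and SI cells through CD45, CD127, Thy1, and KLRG1 on another sorter, so gate, sorter, dissociation, and tissue cannot be told apart. The libraries are bulk samples, in which fewer cells with an open region and less accessibility per cell cannot be told apart either.

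Total counts lay between 10282987 (pancreas replicate 2) and 32797872 (lung replicate 2). The single most covered region took 1.78% to 9.0% of a library. Of 10 ILC2 markers, 9 had a promoter region, all but Thy1, and their summed level lay between 282 and 436 CPM (read counts scaled to library size, with TMM factors) in the 10 libraries. Single markers varied more between tissues. Il1rl1, which encodes ST2, had a mean of 4.04 CPM in SI and 11.4 to 35.4 CPM in the other tissues. Klrg1 had 11.3 CPM in BM and 40.8 to 73.9 CPM in the others. None of the ILC3, NK cell and ILC1, or mast cell and basophil markers had a promoter region. The summed T cell markers reached at most 10.0 CPM, from Cd3e and Cd3g alone, since Cd3d, Cd4, and Cd8a had no promoter region. B cell and myeloid markers had a promoter region only at Ebf1 and Spi1, and both lists were highest in an SI library, at 15.6 and 9.29 CPM. Epithelial markers reached 9.49 CPM in pancreas at most, and endothelial markers were 40.3 to 42.9 CPM in LI against 17.8 to 32.3 CPM elsewhere, from Thbd and Cd93 alone. The part of other cells in the tissue differences below was not tested.

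Stretches of mm10 around matches to the 10-base κB consensus are printed from regions described below. They are on the strand of the gene, 5′ to 3′, with the match in capitals. Not all of these regions differed between tissues, and whether any difference depends on a match was not tested. The first pair comes from introns whose accessibility was lowest in BM, and the third from the promoter of Rel.
Nfkb1 intron 1, chr3:135670725-135670824: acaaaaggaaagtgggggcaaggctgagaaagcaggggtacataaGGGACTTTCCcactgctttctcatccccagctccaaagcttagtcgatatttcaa
Rel intron 3, chr11:23754372-23754473: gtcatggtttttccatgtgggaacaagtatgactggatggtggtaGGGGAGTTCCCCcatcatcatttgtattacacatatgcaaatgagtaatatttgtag
Rel promoter, chr11:23771006-23771106: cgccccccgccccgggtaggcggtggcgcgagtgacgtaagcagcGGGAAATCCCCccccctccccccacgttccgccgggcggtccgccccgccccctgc
The next come from the promoters of the inhibitors Nfkbid, with 2 sites, and Nfkbie, and from a region downstream of Nfkbia that was highest in SI.
Nfkbid, chr7:30422135-30422234: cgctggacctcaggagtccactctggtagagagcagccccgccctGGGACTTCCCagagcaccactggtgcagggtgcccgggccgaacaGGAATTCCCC
Nfkbie, chr17:45555549-45555648: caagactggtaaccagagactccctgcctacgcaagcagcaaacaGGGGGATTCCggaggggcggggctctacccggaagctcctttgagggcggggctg
Nfkbia, chr12:55465174-55465273: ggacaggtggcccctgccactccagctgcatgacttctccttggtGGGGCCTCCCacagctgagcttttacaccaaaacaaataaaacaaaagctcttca
The last pair comes from the 16 regions downstream of Nfkbiz, 15 of which differed between tissues. One holds their only κB match in a central window, and the other, from the region highest in SI, has the GATA motif AGATAA in capitals.
Nfkbiz, 45.6 kb from the TSS, chr16:55776506-55776606: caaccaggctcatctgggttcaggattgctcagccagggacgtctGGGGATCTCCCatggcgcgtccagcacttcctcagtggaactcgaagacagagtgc
Nfkbiz, 35.3 kb from the TSS, chr16:55786957-55787052: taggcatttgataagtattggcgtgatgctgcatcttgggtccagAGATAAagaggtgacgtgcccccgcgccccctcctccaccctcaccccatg

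A κB match on either strand lay in the central 500 bases of 27 of the 90 regions (30.0%), against 15.8% of all 50039 regions. At promoters the counts were 6 of 10, against 19.1% of all promoter regions, and elsewhere 21 of 80 (26.2%), against 15.0%. In RefSeq promoters of GRCm38.p6, from 250 bases before to 50 after a start, 7 of the 10 genes had an entry. A κB match was found for 6 of these 7 genes, Rela being the exception, and for 9.55% of all 27025 genes in that table, and 2 or more separate sites for 3 of the 7 (Nfkb2, Nfkbid, and Tnfaip3), against 0.599%. Downstream of Nfkbiz 1 of 16 regions (6.25%), all of them intergenic, held a κB match, 8 (50.0%) the AP-1 motif TGANTCA, and 7 (43.8%) the GATA motif. For the last pair the shares were 23.2% and 24.8% of all regions, and 26.6% and 28.4% of all non-promoter regions. The GATA motif was searched as AGATAA, all motifs on both strands, and overlapping matches of the same motif were counted once. A match is a description of letters and not evidence of binding.

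Among the 90 regions, 41 (45.6%) differed between the 5 tissues at an adjusted p under 0.05, and 44.2% of the 49981 regions tested did so, so the genes as a whole were close to the table. By class, 3 of 10 promoter regions differed (30.9% of all promoter regions), 12 of 37 intragenic regions (47.0%), and 26 of 43 intergenic regions (48.0%). The differing regions were uneven over the genes, with 16 of 22 at Nfkbiz, 12 of 29 at Nfkb1, 4 of 10 at Nfkbia, 4 of 13 at Tnfaip3, 2 of 4 at Rel, 1 each at Nfkb2, Rela, and Nfkbid, and none at Relb and Nfkbie, where 1 region (at Relb) reached an adjusted p of 0.058. Neighbouring regions come from the same libraries and the same locus and are not replicates of a tissue.

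Each tissue was then compared with the mean of the other 4. BM ILC2s were lower in 24 of the 90 regions (17.0% of all regions) and higher in 9 (14.9%). LI ILC2s were higher in 15 (8.80%), lung ILC2s lower in 15 (7.03%) and higher in 4 (6.53%), pancreas ILC2s higher in 9 (8.27%), and SI ILC2s higher in 10 (11.8%) and lower in 6 (10.2%). In edgeR's test 0 regions were lower in LI (1.27%) and 0 in pancreas (2.11%), with 7 each at an unadjusted p under 0.05, and DESeq2 called 2 and 1. Outside Nfkbiz the counts lower in lung were 1 at Rel, 2 at Nfkbia, and 1 at Tnfaip3, and those higher in LI were 2 at Nfkb1 and 1 at Tnfaip3, so most of both came from 1 locus. A region higher than each of the other 4 tissues, at an unadjusted p under 0.05 against each, is called tissue-specific, and 3 regions met this (11.3% of the table). They were 1 region of LI (1.3%) at Nfkb1 and 2 of SI (2.8%), at Nfkb1 and Nfkbiz. The mirror class, commonly decreased, held 14 regions (12.7%), with 6 at Nfkbiz, 4 at Nfkb1, 2 at Tnfaip3, and 1 each at Rel and Nfkbia.

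**Figure D1:**
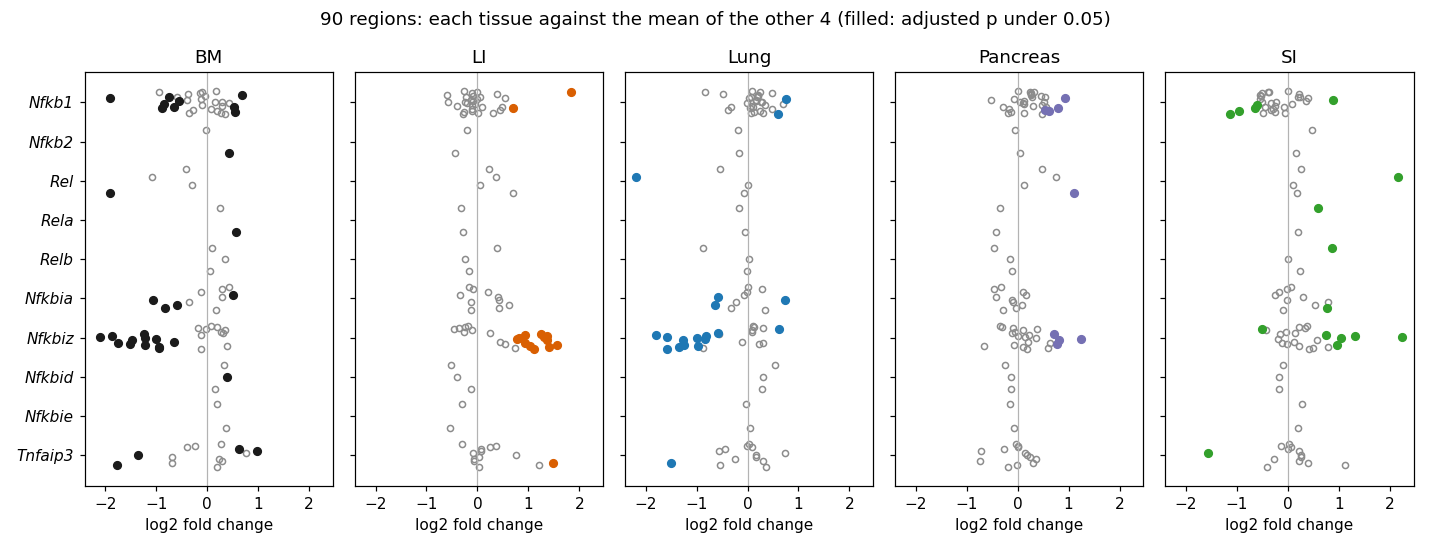
Log2 fold change of each of the 90 regions (one point each, rows are genes) in each tissue against the mean of the other 4, with filled points at an adjusted p under 0.05. The filled points of Nfkbiz lie to the left in BM (12 regions) and to the right in LI (12 regions), and no region of the 90 is filled to the left in LI or pancreas.

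The regions at the start sites differed little between tissues. For each gene the region with the highest mean CPM within 1 kb of a start was taken, a choice made after the values were seen, and 3 of these 10 differed (Nfkb1, Nfkb2, and Nfkbid), with ratios of the highest to the lowest tissue mean between 1.26 and 2.03. BM had the highest mean at 9 of the 10 start sites and LI the lowest at 8. The same order was common in the table, where BM was highest in 52.6% and LI lowest in 30.2% of all promoter regions. The median log2 fold change of BM was 0.36 over the 10 promoter regions of these genes and 0.25 over all 9629.

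Of the subunits, Nfkb1 encodes p105 and its product p50, a DNA-binding subunit that lacks an activation domain. At its TSS (chr3:135691264-135691803) the libraries had 45.7 and 64.1 CPM in BM, 47.3 and 37.6 in lung, 54.4 and 32.4 in pancreas, 23.2 and 30.9 in LI, and 21.9 and 33.4 in SI. BM lay above LI and SI without overlap and overlapped lung and pancreas, with a log2 fold change of 0.68 ± 0.20 (SE) against the other 4 (adjusted p = 0.018). The call was lost with library size in place of TMM (adjusted p = 0.054), after removal of trends in GC content and width (0.070), and without BM replicate 2 (0.32).

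Nfkb2 encodes p100, the precursor of the p52 subunit of the non-canonical pathway. The region over its starts (chr19:46304441-46305811), which also lies in 4833438C02Rik, had 220 and 164 CPM in BM, 133 and 145 in lung, 164 and 147 in pancreas, 115 and 123 in LI, and 162 and 171 in SI. It differed between tissues with an adjusted p of 0.046 and was higher in BM by 0.42 ± 0.14 (log2, SE, adjusted p = 0.035), with BM replicate 2 inside the range of SI. Rela encodes p65, the activating subunit of the main canonical dimer. Its promoter region had 54.3 and 43.3 CPM in BM and 21.8 to 47.2 in the other libraries, with a log2 fold change in BM of 0.56 ± 0.18 (SE, adjusted p = 0.026) that was lost under 6 of the alternatives (adjusted p from 0.050 to 0.32 in these). The promoter of Rel, which encodes the lymphoid subunit c-Rel, was lowest in BM with 66.6 and 68.0 CPM, against 69.8 to 100 CPM in the other 8 libraries, and did not pass the test (adjusted p = 0.53 over the 5 tissues). Its BM contrast, -0.31 (log2, adjusted p = 0.15), became -0.53 (adjusted p = 0.0073) after removal of trends in GC content and width. The start-site region of Relb, the partner of p52, lay in its intron 1 and had 161 and 138 CPM in BM and 105 to 143 elsewhere (adjusted p = 0.24).

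Among the inhibitors, Nfkbia encodes IκBα, which retains NF-κB in the cytoplasm and is resynthesised on activation. Its start-site region, centred in exon 1, had 94.8 and 91.9 CPM in BM, 78.3 and 58.0 in lung, 90.5 and 64.3 in pancreas, 56.7 and 60.5 in LI, and 55.5 and 68.1 in SI (adjusted p = 0.064 over the tissues). Both BM libraries were above the other 8, by a small margin over pancreas replicate 1, and the contrast of BM was 0.50 ± 0.16 (log2, SE, adjusted p = 0.025). Nfkbid encodes IκBNS, a nuclear IκB protein, and the region in its intron 1, 0.1 kb from a start, had 71.1 and 67.8 CPM in BM, 63.5 and 69.5 in lung, and 40.5 to 56.4 in LI, pancreas, and SI (adjusted p = 0.036). There BM and lung overlapped and lay above the 6 other libraries. Nfkbie (IκBε), Tnfaip3 (A20, a ubiquitin-editing enzyme that ends signalling), and Nfkbiz (IκBζ, a nuclear IκB protein that coactivates secondary response genes) did not pass the test at their starts, with adjusted p-values of 0.092, 0.33, and 0.27. For Nfkbie the LI libraries, at 27.9 and 27.2 CPM, were nonetheless below the other 8, which held 31.2 to 52.1 CPM. The LI contrast of Nfkbie, -0.54 (log2), passed the test with DESeq2 (adjusted p = 0.034), with library size in place of TMM (0.045), and without SI replicate 1 (0.0080).

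**Figure D2:**
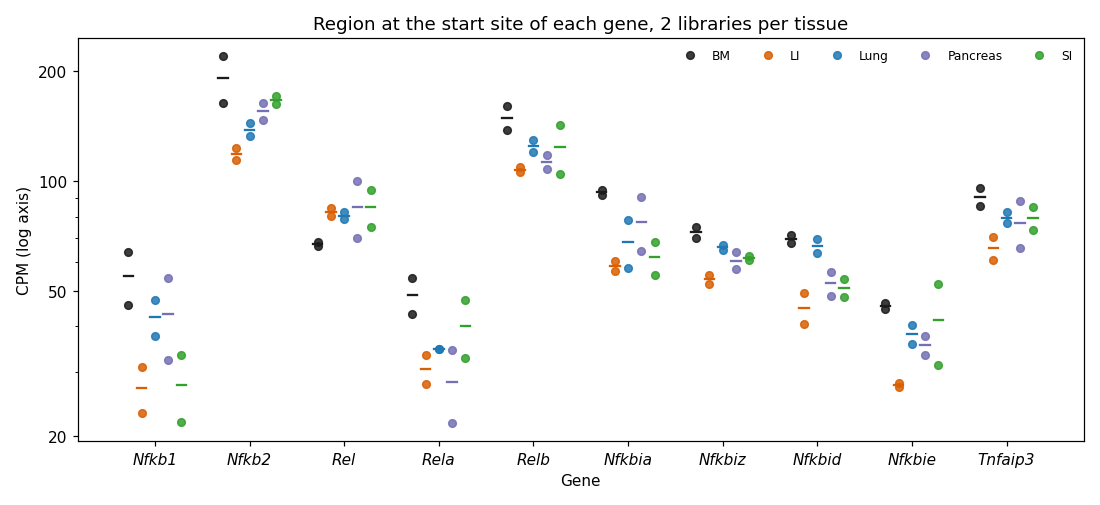
CPM (log axis) of the start-site region of each gene in the 2 libraries of each tissue, with the tissue mean as a bar. BM has the highest mean in 9 of the 10 genes and LI the lowest in 8, and the highest tissue mean is at most 2.03 times the lowest.

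Away from the start sites the subunit genes held larger differences, in regions picked by their values. Over all the genes, the 80 other regions had mean levels of 1.35 to 68.8 CPM, against 36.4 to 154 CPM at the start sites. In intron 1 of Nfkb1 (chr3:135670431-135670972, 20.8 kb from the TSS), the libraries had 5.43 and 4.42 CPM in BM, 10.7 and 18.2 in lung, 18.3 and 29.9 in pancreas, 18.4 and 20.1 in LI, and 13.7 and 21.9 in SI. Both BM libraries were below all others, with a log2 fold change of -1.92 ± 0.28 (SE, adjusted p = 0.00010), and the highest tissue mean was 4.89 times the lowest. This region is the one whose κB stretch is printed first. A further region in intron 1, at 16.6 kb, was also commonly decreased in BM, with 5.73 and 7.32 CPM against 9.68 to 12.8 CPM.

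Introns 22 and 15 of Nfkb1, toward its 3′ end, followed another order, with SI lowest, which the other 3′ regions did not all share. In intron 22 (chr3:135590451-135590964) SI had 7.85 and 8.08 CPM, against 11.2 to 22.5 CPM in the other 8 libraries, a log2 fold change of -1.14 ± 0.19 (SE, adjusted p = 0.00053). In intron 15 (chr3:135604311-135604867) SI had 26.9 and 29.1 CPM and the others 39.4 to 69.9, a log2 fold change of -0.97 ± 0.16 (SE, adjusted p = 0.00037), and pancreas, with 65.2 and 69.9 CPM, was above all other libraries. In both introns the SI libraries did not overlap another tissue. Intron 11 (chr3:135613118-135613639) separated LI and pancreas, at 13 to 15.6 CPM, from BM and SI, at 5.25 to 7.56 CPM, with lung between them at 8.66 and 10.2 CPM.

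Nfkb1 also held 2 of the 3 tissue-specific regions. One lay at -30.8 kb from the TSS (chr3:135722069-135722569), where LI had 8.46 and 5.78 CPM and the other libraries 1.24 to 4.21 CPM, a log2 fold change of 1.83 ± 0.33 (SE, adjusted p = 0.0016). The other lay in intron 3, where SI had 20.7 and 14.1 CPM against 6.90 to 12.0 CPM, a log2 fold change of 0.88 ± 0.19 (SE, adjusted p = 0.0034). So within 1 gene the tissue with the extreme value changed from region to region, and 12 of the 29 regions passed neither the test over the 5 tissues nor any contrast.

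Rel showed the same BM pattern as intron 1 of Nfkb1 in its intron 3 (chr11:23754181-23754724). The libraries had 1.61 and 2.39 CPM in BM, 4.70 and 6.38 in lung, 8.48 and 13.3 in pancreas, 8.72 and 8.38 in LI, and 7.03 and 5.78 in SI. BM was below all other libraries, with a log2 fold change of -1.91 ± 0.29 (SE, adjusted p = 0.00013), and pancreas was higher by 1.12 ± 0.23 (adjusted p = 0.0051). A thinly covered region 7.9 kb upstream of Rel had 4.33 and 2.09 CPM in SI, 1.06 and 1.94 in pancreas, and 0.157 to 1.57 in the rest. The SI contrast there was 2.16 ± 0.42 (log2, SE, adjusted p = 0.0016), and the lower value in lung (-2.19 ± 0.58, adjusted p = 0.020) was lost without BM replicate 1 or either lung library.

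Differences at the other subunits were small. The region downstream of Rela, 11.4 kb from its TSS, had 25.1 and 28.6 CPM in SI, 23.8 and 20.4 in BM, and 15.4 to 18.9 in LI, lung, and pancreas, so that SI was above all others (log2 fold change 0.60 ± 0.16, SE, adjusted p = 0.011), a call lost without SI replicate 2 (adjusted p = 0.091). At Relb the region 6.1 kb upstream, which lies in Clptm1, had 5.30 and 3.45 CPM in SI and 1.57 to 3.87 in the other libraries, which overlap (0.87 ± 0.30, adjusted p = 0.048 in the SI contrast and 0.058 over the tissues). The second region of Nfkb2, inside the neighbouring gene Psd, had 13.7 to 25 CPM and did not pass the test (adjusted p = 0.21).

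Of the inhibitors, Nfkbia held 6 regions downstream of the gene and 3 upstream, and the 4 that differed were all downstream. The broadest of the 6 (chr12:55464683-55465969, 27.3 kb from the TSS) had 18.2 and 16.7 CPM in BM, 23.0 and 23.0 in lung, 27.1 and 27.0 in pancreas, 35 and 35.1 in LI, and 49.7 and 35 in SI. The 4 other tissues followed BM in the order lung, pancreas, LI, and SI, and only LI and SI overlapped, with log2 fold changes of -0.83 ± 0.17 (SE, adjusted p = 0.0017) in BM and 0.77 ± 0.15 (adjusted p = 0.0016) in SI. Its neighbour at 26.2 kb also had BM and lung lowest, at 7.88 to 9.30 CPM against 11.9 to 19.6 CPM. At 8.5 kb (chr12:55483928-55484428) BM was lowest with 2.89 and 4.0 CPM and lung highest by mean with 9.21 and 9.55, against 5.68 to 9.50 in the others (log2 fold change of BM -1.06 ± 0.25, SE, adjusted p = 0.0043), a call lost without BM replicate 1 (0.098). At 3.7 kb, next to the 3′ end of the gene, lung (17.5 and 20.6 CPM) and pancreas (21.7 and 19.5) were below BM, LI, and SI (26.0 to 36.0).

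Tnfaip3 held 9 regions downstream, 4 of which differed. The region next to the 3′ end of the gene (chr10:18999224-19000690) had 109 and 114 CPM in BM, 37.7 and 58.0 in lung, 50.4 and 36.8 in pancreas, 44.0 and 91.3 in LI, and 88.2 and 58.3 in SI. BM was above the 8 other libraries, among which LI and SI spread widely, with a log2 fold change of 0.98 ± 0.22 (SE, adjusted p = 0.0032). At 28.3 kb SI was lowest, with 0.963 and 0.975 CPM against 1.87 to 4.05 CPM (-1.56 ± 0.36, SE, adjusted p = 0.0049). At 65.0 kb BM was lowest, with 0.343 and 0.736 CPM against 0.766 to 3.66 CPM (-1.77 ± 0.54, adjusted p = 0.021), and this call was lost without either BM library. At 59.8 kb LI was highest, with 5.40 and 2.91 CPM against 0.666 to 2.70 CPM (1.48 ± 0.37, adjusted p = 0.015). The remaining regions of Nfkbid and Nfkbie, 3 in all, did not differ, with adjusted p-values of 0.059 to 0.65.

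**Figure D3:**
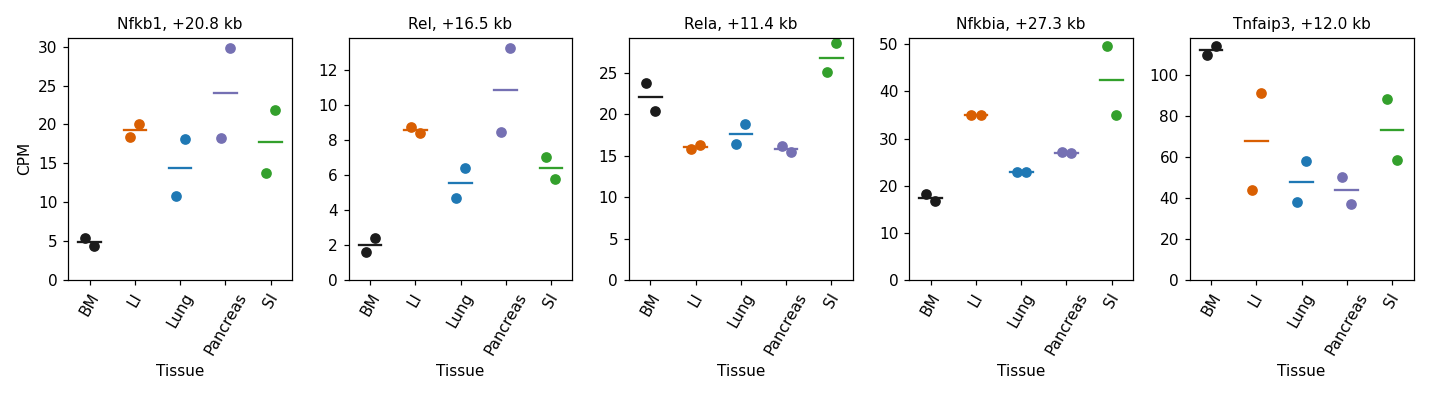
CPM of the region with the smallest p over the 5 tissues at Nfkb1 (intron 1), Rel (intron 3), Rela, Nfkbia, and Tnfaip3 (all downstream), with both libraries of each tissue as points, the tissue mean as a bar, and the distance from the TSS in the title. BM is below every other library at Nfkb1, Rel, and Nfkbia and above every other library at Tnfaip3.

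The largest set of differences lay downstream of Nfkbiz. In this interval of 112 kb (chr16:55698391-55810534, 12.2 to 123 kb from the nearest Nfkbiz TSS) 16 regions had their nearest TSS at Nfkbiz, a set chosen after its values were seen. Of the 16, 15 differed between tissues (44.2% of all regions and 48.0% of intergenic regions). BM was lower than the mean of the other tissues in 12 (17.0% of all regions) and lung in 11 (7.03%). LI was higher in 12 (8.80%), SI in 5 (11.8%), and pancreas in 4 (8.27%). No region of the 16 passed the test in the other direction in any of the 5 tissues. LI had the highest mean in 11 (15.7% of all regions), SI in 2 (24.0%), pancreas in 2 (17.0%), and BM in 1 (28.9%). BM was lowest in 10 (26.5%) and lung in the other 6 (19.1%). In 12 of the 16 the means of LI, pancreas, and SI were all above those of BM and lung.

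Summed over the 16 regions, the libraries had 125 and 154 CPM in BM, 162 and 182 in lung, 205 and 284 in SI, 269 and 253 in pancreas, and 299 and 325 in LI. No LI, pancreas, or SI library overlapped BM or lung, BM and lung did not overlap each other, and SI overlapped pancreas. The gap between BM and lung came mostly from a single region (chr16:55733657-55734743). It gave 357 of 2546 and 515 of 3337 counts in the BM libraries, and 1220 of 4121 and 2172 of 6585 in lung. Tested region by region, 4 of the 16 were higher in BM than in lung and 2 lower. The LI mean of 312 ± 18.1 CPM (SD, n = 2) was 2.24 times that of BM, 139 ± 20.5 CPM, and pancreas and SI were at 1.88 and 1.76 times and lung at 1.23 times. Over the 2 Nfkbiz promoter regions the order was different, with summed levels of 123 and 138 CPM in BM, 116 and 115 in lung, 118 and 103 in pancreas, 93.0 and 103 in LI, and 105 and 93.5 in SI, and neither region differed (adjusted p = 0.27 and 0.11). Promoters and downstream regions thus did not share their order of tissues, although the difference between them was not tested.

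**Figure D4:**
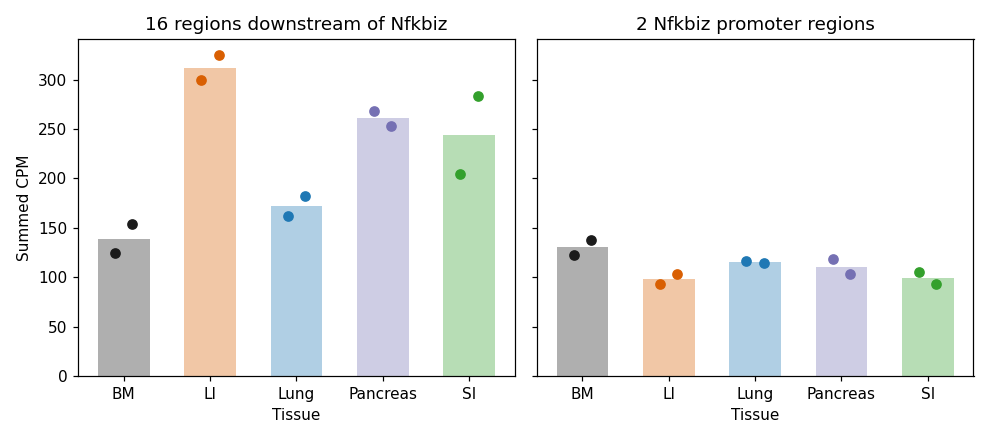
CPM summed over the 16 regions downstream of Nfkbiz (left) and over its 2 promoter regions (right), with both libraries of each tissue as points and the tissue mean as a bar from 0. The downstream sum runs from 125 CPM in a BM library to 325 CPM in an LI library, while the promoter sum lies between 93.0 and 138 CPM and is highest in BM.

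In pairs of tissues the same split appeared. Of the 16 regions, 13 were lower in BM than in LI (18.3% of all regions), 11 lower in BM than in SI (15.1%), and 10 lower in BM than in pancreas (14.3%). LI was above lung in 12 (8.18%), SI above lung in 10 (11.1%), and pancreas above lung in 6 (4.20%). LI was above pancreas in 1 region (2.01%) and above SI in 1 (6.9%), and pancreas was above SI in 1 (12%) and below it in 2 (8.45%). BM and lung differed in 6 regions, 4 higher in BM (7.56%) and 2 lower (11.5%), so these tissues were low at partly different places.

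For description, the 16 Nfkbiz regions were put into 3 groups by the contrasts of BM and lung. Of them 7 were lower in both BM and lung, 5 in BM alone, and 4 in lung alone. Over all regions 17.0% were lower in BM and 7.03% in lung. The 2 contrasts share libraries, so their overlap is not a result. The first group held the clearest region of the 90 (chr16:55786613-55787113, 35.3 kb from the TSS), with 0.685 and 0.966 CPM in BM, 1.10 and 1.13 in lung, 2.65 and 3.24 in pancreas, 4.79 and 6.21 in LI, and 9.34 and 9.37 in SI (adjusted p = 5.8e-06 over the tissues). No 2 tissues overlapped, SI was higher by 2.25 ± 0.23 (log2, SE, adjusted p = 7.2e-06), and the highest tissue mean was 11.3 times the lowest. About 1 kb away, at 34.2 kb, SI with 8.28 and 10.8 CPM and LI with 8.72 and 10.8 overlapped, pancreas had 4.06 and 5.28, and BM, at 1.57 and 1.70, was below lung, at 3.18 and 2.68.

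Also in the first group, the Nfkbiz region at 51.7 kb (chr16:55770197-55770705) had 7.29 and 9.02 CPM in BM, 10.9 and 7.51 in lung, 34.5 and 23.6 in pancreas, 41.1 and 37.8 in LI, and 19.3 and 31.9 in SI. BM and lung overlapped each other and lay below the other 6 libraries, with log2 fold changes of -1.48 ± 0.24 in BM and -1.27 ± 0.23 in lung and of 1.36 ± 0.20 in LI (SE, adjusted p = 0.00025, 0.0019, and 0.00035). The region with the κB match, at 45.6 kb, was highest in pancreas, with 7.83 and 7.66 CPM, followed by LI with 6.19 and 5.73, SI with 3.76 and 3.24, and BM and lung with 1.91 to 2.54 CPM.

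Nfkbiz regions lower in BM alone included the widely open one at 87.9 kb (chr16:55733657-55734743), with 17.5 and 23.7 CPM in BM, 47.8 and 60 in lung, 73.9 and 71.9 in pancreas, 60.4 and 67.5 in LI, and 31.3 and 62.4 in SI. BM lay below every other library (log2 fold change -1.51 ± 0.23, SE, adjusted p = 0.00014) and lung overlapped SI. Its neighbour at 86.5 kb had the same order of BM and lung, with 2.54 and 3.64 CPM in BM and 9.02 and 10.3 in lung. Lung alone was low at 29.6 kb (chr16:55792248-55792791), where it had 2.35 and 1.27 CPM, against 4.8 and 4.33 in BM and 4.96 to 8.91 in LI, pancreas, and SI (log2 fold change -1.80 ± 0.30, SE, adjusted p = 0.00079). At 97.2 kb BM, with 9.20 and 10.4 CPM, was above lung, with 4.90 and 4.33, and pancreas, with 5.18 and 5.93, and below LI, with 14.0 and 14.2. The region closest to the gene, at 12.2 kb, was the one of the 16 that did not pass the test over the 5 tissues (adjusted p = 0.087). It had 20.5 and 24.0 CPM in lung and 25 to 44.2 CPM in the other libraries. It passed the contrast of lung and is counted above among those lower in lung alone.

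Between 14 and 16 of the 16 regions differed when any single library was left out. The counts in 1 direction depended more on the processing and on single libraries. After removal of trends in GC content and width, 14 of the 16 differed, 9 were lower in BM, 8 lower in lung, and 9 higher in LI. With library size in place of TMM these counts were 15, 12, 8, and 9. Without LI replicate 1 or 2 the number higher in LI fell from 12 to 6, without BM replicate 1 the number lower in BM fell from 12 to 7, and the number lower in lung fell from 11 to 7 without BM replicate 2, to 4 without lung replicate 1, and to 1 without lung replicate 2.

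**Figure D5:**
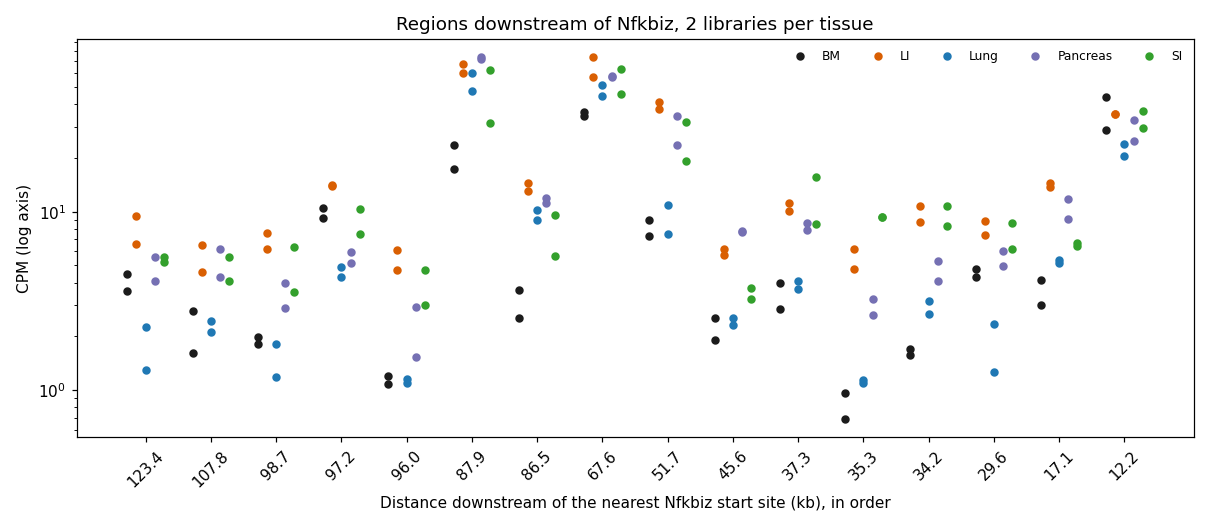
CPM (log axis) of the 16 regions downstream of Nfkbiz in order of their distance from the nearest Nfkbiz TSS, with both libraries of each tissue as points. BM points are lowest around 86.5 and 87.9 kb, lung points at 29.6 and 123 kb, and SI points are highest at 35.3 kb.

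On the upstream side of Nfkbiz, 4 regions lay inside the neighbouring gene Nxpe3. Of these 1 differed, at 9.1 kb, where lung (36.3 and 42.0 CPM) and pancreas (36.2 and 32.1) were above BM, LI, and SI (17.8 to 28.1 CPM), so that lung was higher there by 0.62 ± 0.16 (log2, SE, adjusted p = 0.015).

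When the counts of all regions nearest to a gene were summed, 2 of the 10 genes differed between tissues, Rel (adjusted p = 0.017) and Nfkbiz (adjusted p = 0.021), against 34.2% of the 16807 genes tested. Rel had 65.2 and 67.4 CPM in BM, 85.8 and 91.7 in lung, 116 and 94.5 in pancreas, 94.4 and 102 in LI, and 88.8 and 103 in SI. BM was below the other 8 libraries, with a log2 fold change of -0.55 ± 0.12 (SE, adjusted p = 0.0036). Nfkbiz had 270 and 322 CPM in BM, 340.5 and 369 in lung, 456 and 434 in pancreas, 442 and 496 in LI, and 351 and 420 in SI, again with BM lowest (-0.47 ± 0.13, SE, adjusted p = 0.014). Neither BM call held without BM replicate 1 (adjusted p = 0.070 and 0.23), and that of Nfkbiz was also lost with library size in place of TMM (-0.42, adjusted p = 0.073). For Nfkbia the sum did not pass the test, with 199 to 235 CPM in the 10 libraries (adjusted p = 0.92).

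Other genes of the pathway were read by the same sums. Among the kinases and adaptors that carry the signal to NF-κB, 7 of 23 with a region differed (34.2% of all genes). In the BM contrast 6 were lower (13.5% of all genes), 2 of which (Traf6 and Myd88) did not pass the test over the 5 tissues. In the same contrast 1 was higher (1971 of all 16807 genes). The median log2 fold change in BM was -0.17, against 0.01 over all genes. Irak3, a kinase-dead brake on MyD88 signalling, had 28.9 ± 3.27 CPM (SD, n = 2) in BM and 62.3 ± 3.76 in LI, with a log2 fold change in BM of -0.90 (adjusted p = 0.00016 in edgeR's test). Ikbkb, the catalytic IKKβ subunit, was also lower in BM, with a log2 fold change of -0.47. Among further inhibitors and ubiquitin editors 3 of 15 (20%) differed (Tnip2, Otulin, and Rnf11). In the BM contrast 3 of this list were lower and 1 was higher. Its median log2 fold change in BM was 0.06, so this list did not share the lower BM median of the kinases and adaptors.

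Among NF-κB target genes 9 of 17 (52.9%) differed, against 34.2% of all genes. In the BM contrast 7 were lower (13.5% of all genes), 2 of which (Lta and Gadd45b) did not pass the test over the tissues, with a median log2 fold change in BM of -0.17, against 0.01 over all genes. Cxcl2, a neutrophil chemokine, had means of 19.6 CPM in BM, 52.4 in lung, 92.7 in pancreas, 77.7 in LI, and 24.8 in SI, so that BM and SI were lowest (log2 fold changes -1.49 and -1.07). Il6 was lowest in BM (-0.99) and lung (-0.56) and highest in pancreas (0.75). Cd83 and Cflar, the latter an inhibitor of caspase-8, were lower in BM, with log2 fold changes of -0.56 and -0.70. Cd83 was also higher in SI, by 0.55. In the SI contrast 4 targets were higher (1273 of all 16807 genes) and 3 lower (1461), and not all of these passed the contrast of BM. These lists were chosen with results of the same libraries known, and nothing particular to them is drawn from the counts.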

How the data were processed

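Chromatin accessibility of sorted mouse ILC2s was measured by ATAC-seq in 10 libraries. The authors deposited raw read counts per region for every library in 1 table. According to the paper's methods and the submitters' processing notes, reads were checked with FastQC 0.11.9, uniquely aligned to mm10 with Bowtie2 2.2.9 and SAMtools 1.8, peaks were called per library with MACS2 2.1.1, those found in both replicates were merged, and reads were counted over them. Coordinates were left as deposited.

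Regions were assigned with curated RefSeq transcripts. Counts of the 49981 regions with any count were scaled by TMM and fitted with edgeR 4.0.16 (R 4.3.3), in its quasi-likelihood test with tissue as the only factor, over all 10 libraries. P-values were two-sided and adjusted by Benjamini-Hochberg over all regions, or over 16807 genes for gene sums, with a threshold of 0.05. The SE of a log2 fold change is its size divided by the square root of F. DESeq2 1.42.0 served as an alternative, and the fitting steps were tested on simulated data. The genes and lists were chosen with earlier results of these data known. By rule, the promoter region with the most counts, the region with the smallest p over the 5 tissues, and the region with the largest called change of each gene were described, and further regions named in the text were chosen after their values were seen. Both libraries of a tissue are pools of mice, and p-values measure only the spread between such replicate pools. This spread was estimated jointly over the 5 tissues and not for each tissue. The reads carry no molecular identifiers and PCR copies are not independent molecules. Values of 1 gene of the pathway lists are not reported here.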

Additional observations from a re-analysis of the deposited data

How the results depend on the processing

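Among the values with a direction, that of the Nfkbia gene sum in LI, which did not pass the test (0.09, log2), changed sign with library size alone (-0.12) and with non-promoter regions only (-0.00018), and no other did under the alternatives run. The 41 differing regions became 26 at an adjusted p under 0.01 and 36 to 52 with 1 library left out. Scaling by library size alone, which shifted the median of all regions by up to 0.20 (log2, SI), gave 1 region higher in BM, 9 in lung, 4 in pancreas, and 16 in SI, 1 lower in LI, 1 in pancreas, and 3 in SI, 6 tissue-specific regions, and 4 gene sums. DESeq2 gave 2 regions lower in LI, 1 in pancreas, and 6 gene sums. Removal of GC and width trends gave 2 lower in LI, 2 in pancreas, and 8 tissue-specific regions. With adjusted p in each contrast, 0 regions were tissue-specific and 7 commonly decreased, and non-promoter regions alone gave 4 gene sums. Restriction to 25 kb around a start site, chosen after seeing the data, removes regions by construction and left 12 differing, 5 lower in BM, 1 higher in LI, 3 lower in lung, 3 higher in pancreas, 3 higher and 1 lower in SI, 0 tissue-specific, and 4 commonly decreased. With 1 library left out, the ranges were 2 to 12 in BM, 6 to 20 in LI, 0 to 6 in lung, 2 to 13 in pancreas, 7 to 11 in SI for higher regions, 14 to 28 in BM, 0 to 4 in LI, 1 to 15 in lung, 0 to 1 in pancreas, 4 to 11 in SI for lower regions, 0 to 8 tissue-specific, 10 to 18 commonly decreased, and 0 to 4 gene sums. Downstream of Nfkbiz they were 14 to 16 differing, 7 to 12 lower in BM, 1 to 12 lower in lung, and 6 to 14 higher in LI. The cause of these shifts was not tested. With the replicate block 41 regions and 2 gene sums differed, and same-numbered libraries did not deviate together in every pair of tissues (correlations from -0.24 to 0.20, positive among LI, lung, and SI and negative between pancreas and each other tissue), so the numbers were not taken to pair the libraries.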

Other observations

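Beyond the last region downstream of Nfkbiz, 9 further regions of chromosome 16 had their nearest start site at Mir5118. Of these 6 differed between tissues (44.2% of all regions), with 4 lower in BM (17.0%), 5 higher in LI (8.80%), 4 lower in lung (7.03%), 3 higher in pancreas (8.27%), and 2 higher (11.8%) and 1 lower (10.2%) in SI.

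Over the 10 libraries, the genes whose summed level was most like that of Rel were Itga3, 1700066B17Rik, and Ergic1 (Pearson's r of log2 CPM 0.950, 0.950, and 0.948), and those most like Nfkbiz were Smap1, Mkln1os, and Pvr (0.979, 0.967, and 0.965), given as a description, since all genes share the libraries and their depth.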
